A study of Mus musculus with 2 samples.

Results

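The genes described here are 9 markers of the stem and progenitor cells of the hair follicle: Lgr5, Lgr6, Cd34, Lhx2, Nfatc1, Tbx1, Gas1, Lrig1 and Plet1. They were found on the arrays by gene name among the spots that are not controls. This gave 11 probes for 8 of the 9 genes, out of 41165 probes with 27840 gene names. No probe carried the name Plet1, but 2 probes carried its older name, 1600029D21Rik, and were designed to the RefSeq transcript NM_029639, which the RefSeq gene table pairs with Plet1. With these the set had 13 probes, each printed as a single spot.

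RNA came from full-thickness dorsal skin of C3H/HeN males aged 61 days, in which depilation had started anagen, in which hair grows. The FGF18 group had received 1 µg of FGF18 protein under the skin on day 4 after depilation, the PBS group phosphate-buffered saline in its place, and skin was collected 24 h later. Each group was measured on 1 single-colour Agilent array with pooled poly(A) RNA; the labels name 3 mice without a number per group, and the title of the PBS sample says telogen (the resting phase) where its other labels say anagen. The question behind the comparison was which transcripts of anagen skin local FGF18 affects.

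The hair follicle keeps its stem cells in the bulge, below the sebaceous gland, and in the hair germ just under it. FGF18 is one of the factors that bulge cells make, and it is known for holding follicles in the resting phase. The markers fall into groups by role. LGR5 and LGR6 are receptors for R-spondins, secreted proteins that strengthen Wnt signalling: Lgr5 marks the lower bulge, the hair germ and the lower outer root sheath of growing follicles, and Lgr6 the isthmus above the bulge. LHX2, NFATC1 and TBX1 are transcription factors of bulge stem cells. CD34 is a surface glycoprotein by which mouse bulge cells are sorted, and GAS1 a membrane-anchored co-receptor for Hedgehog ligands. LRIG1, which restrains ErbB receptors, and PLET1, a surface protein, mark the junctional zone and isthmus of the upper follicle.

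Values below are the scanner software's processed signals, in units of intensity. Log2 ratios are FGF18 minus PBS after each array's log2 signals were lowered by their 75th percentile, a signal of 1020 with FGF18 and 899 with PBS. On this scale the median of the 16694 genes measured on both arrays was -0.07. Every ± rests on the errors that the scanner software's error model gives for single signals, set to at least 10% of each signal. For a log2 ratio both arrays' errors were combined, and for a gene's mean also those of its probes, taken as independent. These combined errors are called the software's error below. Every ± covers the array measurement and not the spread between mice. Among 177 probes printed as 10 spots, the median SD of 1 spot's log2 ratio was 0.032 at mean signals over 1000, 0.073 at 100 to 1000 and 0.23 under 100, and the highest was 0.087, 0.26 and 0.44 in the same order. This SD was above the probe's modelled error for 0 of 95, 3 of 63 and 5 of 19 probes. With 1 array per group no p-value can be given, and whether a difference is larger than the spread between mice cannot be said. Of all probe spots, 62.4% with FGF18 and 61.5% with PBS were well above background. The keratinocyte markers (4 of 4) and the hair matrix and shaft markers (6 of 6) that should be present in anagen skin were well above background on both arrays. Before scaling, the summed signals were 447165 with FGF18 and 431218 with PBS for the keratinocyte list. On the scaled log2 ratio this list had a median of -0.22, with 3 of 4 genes below 0. For the matrix and shaft list the unscaled sums were 91049 with FGF18 and 77809 with PBS, of which the hair keratin gene Krt35 gave 72400 with FGF18 and 60900 with PBS. The median log2 ratio of that list was 0.0061, and 1 of its 6 genes, Foxn1, was past 1.5-fold, at -0.72 (signals of 196 with FGF18 and 284 with PBS). Krt35 and Foxn1 are named after their values were seen.

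Lgr5 was lower on the FGF18 array, at a log2 ratio of -0.87 ± 0.20, and the other 8 genes lay within 1.5-fold of equality between the arrays. Of the 8 genes found by name, 1 was at least 1.5-fold lower and 0 were at least 1.5-fold higher. Over all measured genes, 4.86% were at least 1.5-fold lower and 3.77% at least 1.5-fold higher. None of the members reached 2-fold, which 0.988% of all genes did downward and 1.53% upward. The median log2 ratio of the 8 genes was -0.14, against -0.07 for all genes, and it was -0.10 over the 7 genes other than Lgr5 and -0.18 over all 9 with Plet1. Of these 9 genes, 7 lay below the median of all genes and 2, Gas1 and Lhx2, above it; the number below was 6 with quantile normalization and 5 both with normexp background correction and with no filter on dim probes. Scaling to spike-in transcripts instead put the other 8 genes above 0 and Lgr5 at -0.06. In whole skin, fewer cells of a type and less RNA per cell cannot be told apart.

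**Figure D1:**
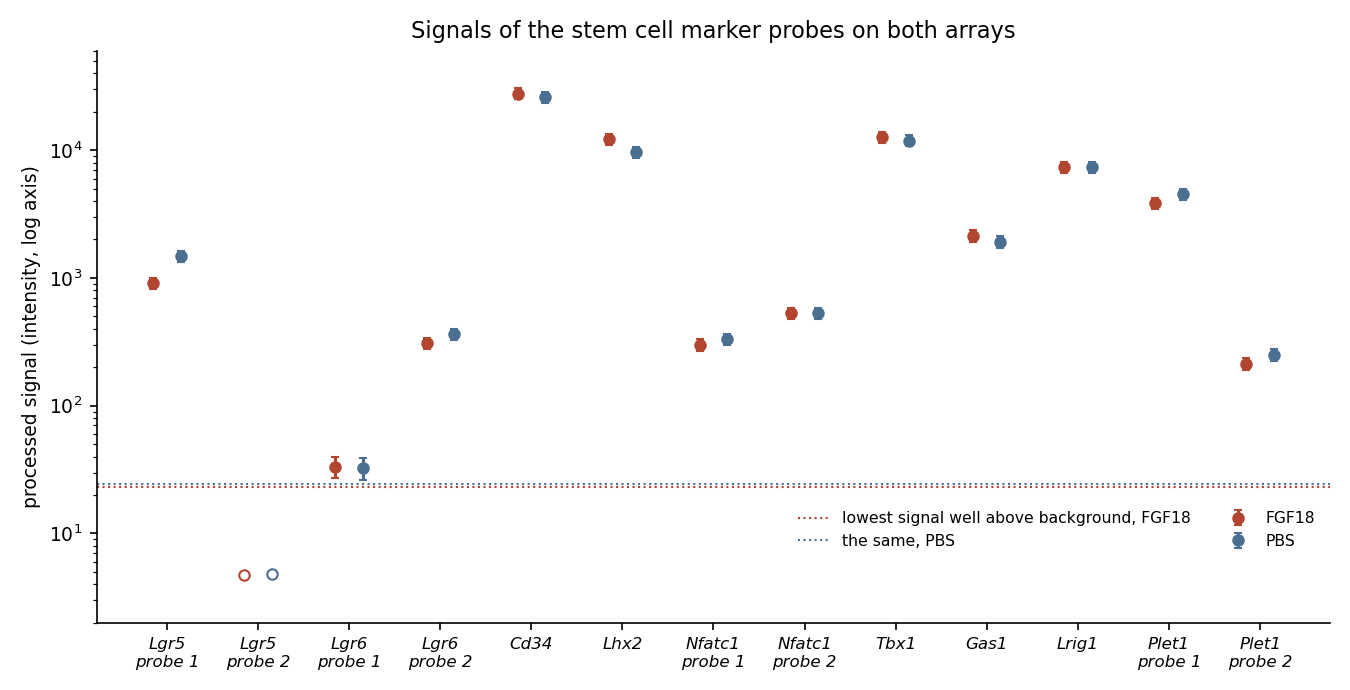
Processed signal (intensity, log axis) of the 13 marker probes on the FGF18 array (red) and the PBS array (blue), with the scanner software's error; open circles, drawn without an error, are not well above background. The Lgr5 transcript probe stands at 916 with FGF18 and 1480 with PBS, while the pairs of the other measured probes lie close together; the dotted lines are the lowest signals well above background.

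Lgr5 was measured by the probe A_51_P218091, designed to the RefSeq transcript NM_010195 of this gene on chromosome 10. Its signal was 916 ± 91.7 with FGF18 and 1480 ± 148 with PBS. The spot's mean intensity before background removal was 1010 on the FGF18 array, over a local background of 60.0, and 1580 on the PBS array, over 64.0. Both signals were far above the lowest signal counted as well above background, by 39.3-fold on the FGF18 array and 61.2-fold on the PBS array. The scaled difference amounted to 1.83-fold lower with FGF18, or 4.28 times the software's error, and the unscaled log2 ratio was -0.69. The scaling by the 75th percentile thus accounted for 0.18 of the difference. At or below this ratio lay 256 of 16694 measured genes, or 1.53%. Among the 9775 measured probes with mean signals over 1000, to which this probe belongs, 2.17% were at least 1.5-fold lower, and over all measured probes 1.27% were at least 4 errors below equality.

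A second Lgr5 probe, A_52_P30169, did not measure the gene. It was designed to the cDNA clone AK047873, and by the positions in the files, which name no genome build, it lies 11.8 kb from the other probe, toward the gene's start. Its signals were 4.69 with FGF18 and 4.85 with PBS, not well above background on either, so it gives no ratio. The Lgr5 value thus rests on 1 spot per array. With no filter on dim probes the second probe is averaged in, and the log2 ratio of Lgr5 is then -0.55.

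Lgr6, on chromosome 1, had 2 measured probes. The probe A_52_P75777, designed to the clone AK040883, had signals of 309 ± 31.5 with FGF18 and 362 ± 36.7 with PBS, a log2 ratio of -0.41 ± 0.21. The probe A_52_P616580, designed to the RefSeq transcript NM_001033409, had signals of 33.4 ± 6.10 with FGF18 and 32.6 ± 6.21 with PBS, a log2 ratio of -0.15 ± 0.38. These dim signals stand only 1.43-fold and 1.35-fold above the lowest well above background, so this probe could show little change downward. The probes lie 3.2 kb apart. Their mean put Lgr6 at -0.28 ± 0.22, or 1.21-fold lower with FGF18, a difference of 1 to 2 errors; 19.1% of genes lay at or below it.

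Among the transcription factors, Lhx2 was the one marker with a positive ratio on the scale of the 75th percentile. LHX2 is a LIM homeodomain protein that maintains bulge stem cells. Its probe, A_51_P257419 (chromosome 2, NM_010710), had signals of 12200 ± 1220 with FGF18 and 9620 ± 962 with PBS. The log2 ratio was 0.16 ± 0.20, or 1.12-fold higher, which is within the software's error of 0. It was above 0 in all 15 processing settings. These rework the same spot on each array, so they do not bear on that error. Relative to the median of all genes Lhx2 was at 0.23, and 81.9% of genes lay at or below it.

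Nfatc1 encodes a calcineurin-regulated factor that keeps bulge stem cells quiescent. It had 2 probes on chromosome 18, which lie 41.8 kb apart in the files' positions and were designed to different RefSeq transcripts. The upstream probe, A_51_P220135 (NM_016791), had signals of 300.0 ± 30.4 with FGF18 and 332 ± 33.6 with PBS. The downstream probe, A_51_P517870 (NM_198429), had signals of 530.0 ± 53.3 with FGF18 and 532 ± 53.6 with PBS. Their log2 ratios were -0.33 ± 0.21 and -0.19 ± 0.21, a disagreement of 0.14 that is smaller than the error of either, so no difference between the transcripts was detectable. The gene's mean was -0.26 ± 0.15, or 1.20-fold lower with FGF18.

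Tbx1, a T-box factor that supports the self-renewal of follicle stem cells, was measured by A_51_P218335 (chromosome 16, NM_011532). Signals were 12600 ± 1260 with FGF18 and 11900 ± 1190 with PBS. The higher raw signal turned to a log2 ratio of -0.10 ± 0.20 after scaling, so its direction depended on the scaling and the difference was smaller than the error.

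Cd34 behaved in the same manner. Its probe, A_51_P204740 (chromosome 1, NM_133654), had signals of 27700 ± 2770 with FGF18 and 26100 ± 2610 with PBS, a scaled log2 ratio of -0.10 ± 0.20 that was 0.09 without scaling. It stood 0.03 below the median of all genes. CD34 is also made by endothelial cells, mast cells and dermal fibroblasts, so its signal in whole skin is a sum over cell types. Of the 10 endothelial markers listed, 9 were found by name and all 9 were measured, with log2 ratios of -0.14 to 0.58 (median 0.05) and unscaled summed signals of 7038 with FGF18 and 5821 with PBS. Pecam1 and Cdh5, an adhesion molecule and the cadherin of endothelial junctions, were at 0.05 and -0.0045. The 7 fibroblast markers ranged from -0.75 to -0.11 (median -0.35), with unscaled summed signals of 297030 with FGF18 and 330681 with PBS. All 7 lay below the median of all genes and 3 were at least 1.5-fold lower, against 4.86% of all genes. These were the collagen genes Col1a1 (-0.74), Col1a2 (-0.75) and Col3a1 (-0.60), named after their values were seen. Their measured probes differed widely. They lay between -1.13 and -0.31 for Col1a1, at -0.99 and -0.51 for Col1a2, and at -1.03 and -0.16 for Col3a1. Of the 5 mast cell markers listed, 4 were found by name and measured, with log2 ratios from -0.31 to 0.12 (median -0.13). The other one, found by its updated name, was at -0.35, and the median of all 5 was -0.20. The part of these cells in the Cd34 value was not tested.

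After 75th percentile scaling Gas1 was the marker closest to equality, whereas Lrig1 was closest without scaling and Tbx1 with median scaling. Its probe, A_51_P157083 (chromosome 13, NM_008086), had signals of 2140 ± 214 with FGF18 and 1920 ± 192 with PBS, and the scaled log2 ratio was -0.03 ± 0.20. This is 0.05 above the median of all genes, and the unscaled ratio was 0.16. GAS1 is also made by dermal fibroblasts, whose markers are given above.

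Of the upper follicle markers, Lrig1 had the same signal on both arrays: 7410 ± 741 with FGF18 and 7410 ± 741 with PBS at the probe A_51_P116137 (chromosome 6, NM_008377). Scaling put it at -0.18 ± 0.20, or 1.13-fold lower, a difference that comes from the scaling alone. Plet1 (chromosome 9) had signals of 3870 ± 387 with FGF18 and 4550 ± 455 with PBS at the probe A_51_P131561, and of 213 ± 21.9 with FGF18 and 250.0 ± 25.5 with PBS at A_52_P506995. The probes lie 5.8 kb apart, and their log2 ratios of -0.42 ± 0.20 and -0.41 ± 0.21 differed by 0.0025. For comparison, the ratios of the 4172 genes with 2 measured probes differed by a median of 0.16. As a mean, Plet1 was at -0.41 ± 0.15, or 1.33-fold lower with FGF18, which is 2.04 and 1.98 errors by the single probes. With names updated for all probes, 9.79% of 16611 genes lay at or below it.

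**Figure D2:**
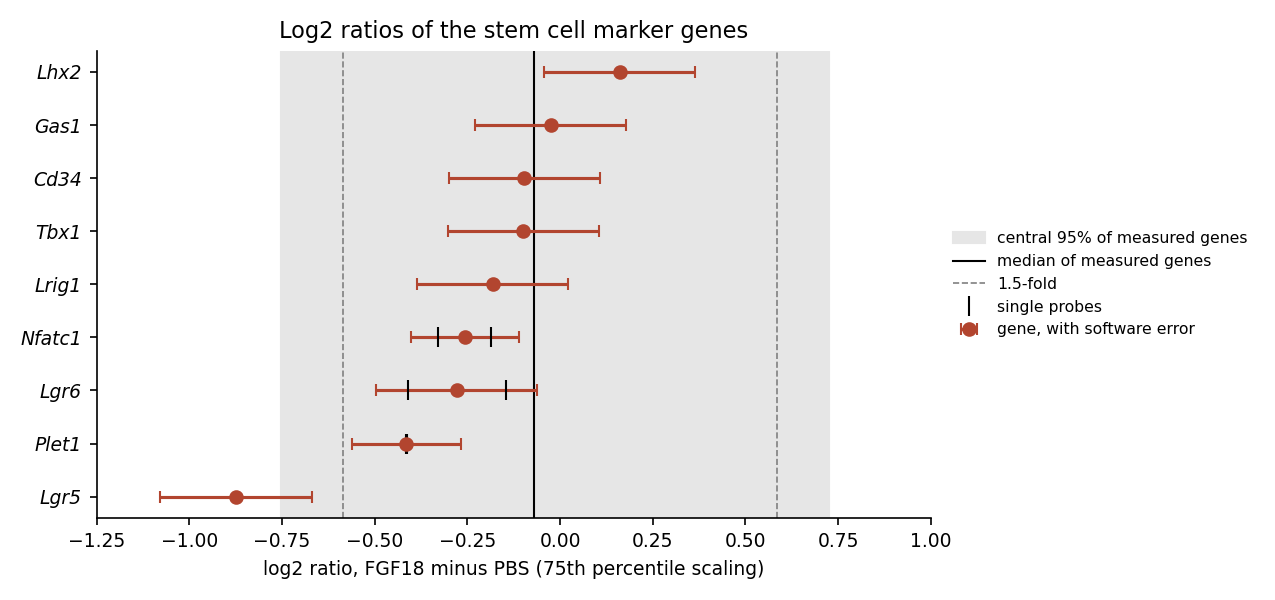
Log2 ratio, FGF18 minus PBS after 75th percentile scaling, of the 9 marker genes (points, with the error combined from the scanner software's errors) and of single probes where a gene had 2 measured (black ticks). Lgr5, at -0.87, lies outside the grey band that holds the central 95% of measured genes (-0.75 to 0.73), and the other 8 genes lie inside it.

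In the order of the ratios Lgr5 came first, then Plet1, Lgr6, Nfatc1, Lrig1, Tbx1, Cd34, Gas1 and Lhx2. The gap between Lgr5 and Lgr6, the next of the genes found by name, was 0.60. The gaps between later neighbours among these genes were 0.19 or less and thus within the error of either neighbour. Of the 12 measured probes, 11 had ratios below 0 and 1 above it, where 61.2% of all measured probes were below 0; 7 were within 1 error of 0 and 10 within 2, against 59.2% and 84.9% of all measured probes. The probes beyond 2 errors belonged to Lgr5 and Plet1. Over all measured probes, 8.76% were at least 2 errors below 0 and 6.31% at least 2 errors above. The paralogs Lgr5 and Lgr6 differed in ratio by 0.60, whereas the third receptor of this family, Lgr4, was at -0.02 with signals averaging 1396 with FGF18 and 1215 with PBS over 2 measured probes.

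The partners of these proteins differed less than Lgr5 did. Among 10 genes of R-spondins, their receptors and Wnt feedback, 8 were measured, with a median of 0.00 and 1 at least 1.5-fold lower. That gene was the Wnt co-receptor Lrp5 (-0.66, signals of 1050 with FGF18 and 1460 with PBS). Axin2, a feedback target of Wnt signalling, was at 0.17, with signals of 1150 with FGF18 and 899 with PBS. The ligand genes Rspo1 and Rspo2 were at -0.12 and 0.10, while Rspo3 and Rspo4 were not well above background on either array. The 7 LRIG relatives and receptors restrained by LRIG1 all lay within 1.5-fold, with a median of -0.11; Erbb2 was highest at 0.02 and the HGF receptor gene Met lowest at -0.19, and Egfr was at -0.14 over 5 measured probes.

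For NFATC1, 7 of 10 genes of calcineurin, the phosphatase that activates NFAT factors, and of its relatives were found by name and measured, with a median of -0.23. Ppp3ca, a catalytic subunit gene with 1 measured probe, was 1.52-fold lower (signals of 5640 with FGF18 and 7570 with PBS). The other catalytic subunit genes, Ppp3cb and Ppp3cc, were at 0.04 and 0.25 and are named after their values were seen. With updated names all 10 were measured and the median was -0.09. The 10 Hedgehog genes, which concern Gas1, had a median of -0.11 with none past 1.5-fold. Among them the pathway target Gli1 was highest at 0.19 and the co-receptor gene Boc lowest at -0.30; the receptor gene Ptch1, itself a target, was at -0.08. The 5 LIM-domain binding and LIM-only genes, whose products bind LIM homeodomain factors or compete with them, ranged from -0.28 for Ldb2 to 0.14 for Lmo2. Of 7 other T-box genes 5 were measured, from -0.41 for Tbx18 to 0.32 for Tbx3.

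The wider follicle lists gave the following values. Of 20 other bulge and hair germ genes, 17 were found by name and measured, with a median of -0.24; 14 of the 17 lay below the median of all genes, 3 were at least 1.5-fold lower and 0 at least 1.5-fold higher, against 4.86% and 3.77% of all genes. The fibroblast markers given above, with 3 of 7 at least 1.5-fold lower, were lower on the same scale. The 4 keratinocyte markers, named after their values were seen, were divided. Krt1 and Krt10 were at -0.38 and -0.39, whereas Krt5 and Krt14 were at -0.06 and 0.015. The part of these cells in the count of bulge and hair germ genes was not tested. The 3 bulge and hair germ genes were Sfrp1, a secreted Wnt inhibitor (-0.81), Nfib, a transcription factor of follicle stem cells (-0.75, with its 4 probes between -0.97 and -0.60), and Sox9, a transcription factor that bulge cells need (-0.65, with its 3 probes between -0.88 and -0.29). The bulge keratin genes Krt15 and Krt19 were at -0.22 and -0.21, the first with signals of 87000 with FGF18 and 89600 with PBS. Cdh3, the P-cadherin of the hair germ and matrix, went the other way at 0.57, with signals of 1600 with FGF18 and 951 with PBS, or 1.48-fold higher. The 6 genes of the isthmus, junctional zone and infundibulum, the region of Lrig1, Plet1 and Lgr6, all lay below the median of all genes, with a median of -0.49 and a range from -0.75 for Cst6, a cysteine protease inhibitor, to -0.27. Cst6 was the single one past 1.5-fold. For these genes as for the markers, the spread between mice is unknown.

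**Figure D3:**
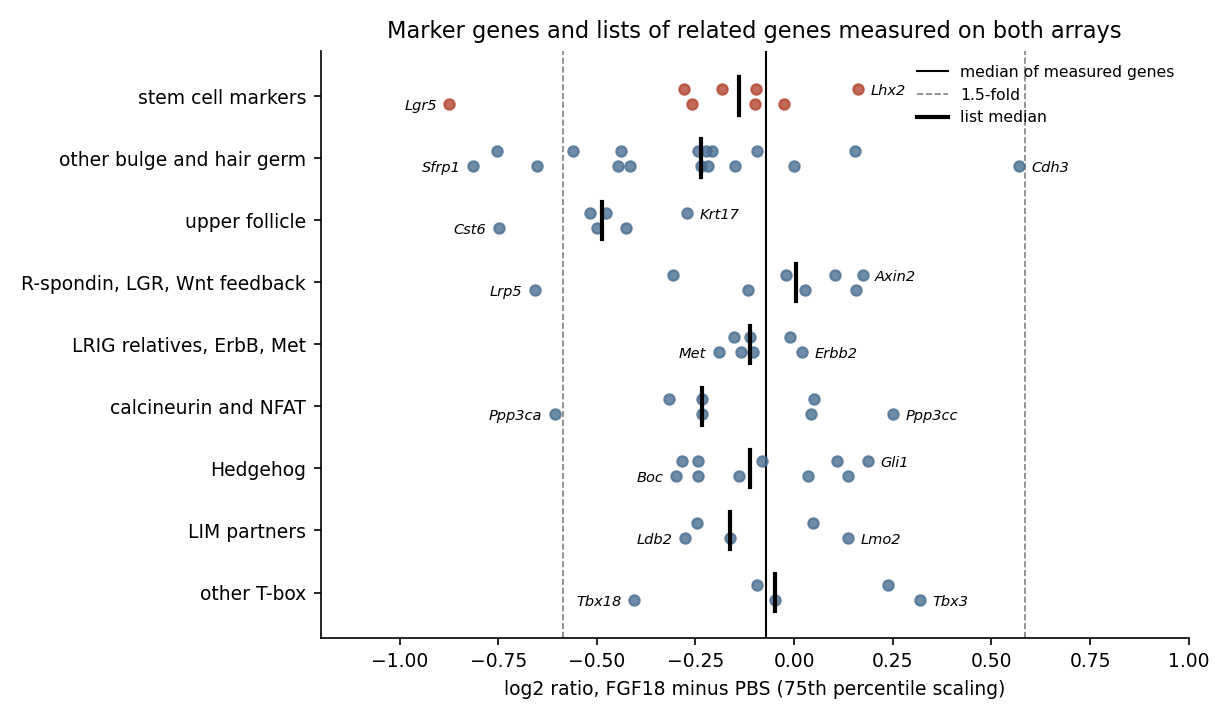
Log2 ratio, FGF18 minus PBS after 75th percentile scaling, of the 8 marker genes found by name (red) and of the genes of 8 related lists (blue) measured on both arrays, with list medians as thick bars and the lowest and highest gene named. Lgr5 is the lowest marker at -0.87, and the upper follicle list lies wholly left of the thin line at -0.07, the median of measured genes.

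The sign of small ratios depended on how the arrays were set to a common scale. Without scaling, the raw signals of Cd34, Gas1, Lhx2 and Tbx1 were higher on the FGF18 array, those of Lgr5, Lgr6, Nfatc1 and Plet1 were lower as means over the log2 values of their probes, and that of Lrig1 was equal. Lgr5 was below 0 in all 15 settings, between -0.87 and -0.06, and past 1.5-fold in 13 of them. Not all of these could change it. With 1 measured probe, the choice of probe, updated names and the dim-probe filters left it at -0.87, except with no filter. The smallest size of the Lgr5 ratio came with scaling to the E1A spike-in transcripts, which adds 0.81 to every ratio. Relative to the median of all genes in the same setting, Lgr5 lay between -0.83 and -0.37, Plet1 between -0.35 and -0.23, Lgr6 between -0.35 and -0.10, and Lhx2 between 0.22 and 0.34.

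**Figure D4:**
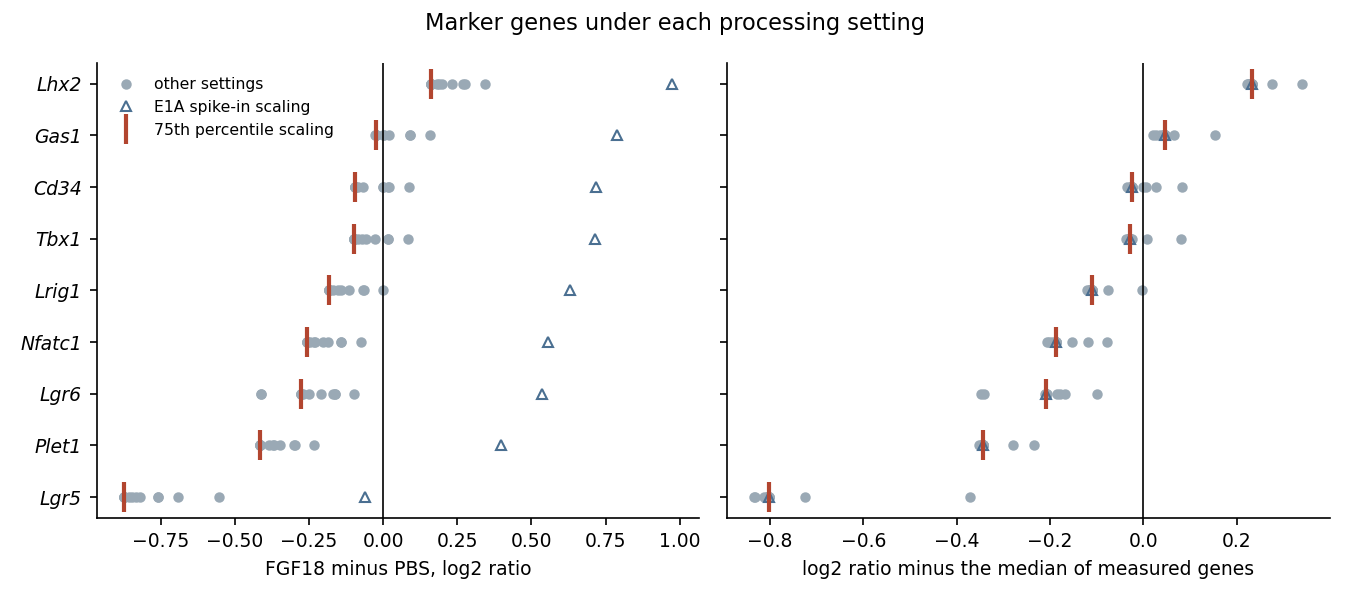
Log2 ratio of each marker gene, FGF18 minus PBS, under 15 processing settings, as such (left) and minus the median of measured genes in the same setting (right). Scaling to spike-ins (triangles) moves every gene to the right by 0.81 in the left panel, and in the right panel Lgr5 stays lowest and Lhx2 highest in the order of genes.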

How the data were processed

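Skin RNA of the FGF18 and the PBS group was hybridised to 1 array each, and the groups were taken from the source names. Per the file headers, the arrays (design 014868, 1 colour) went through Agilent's Feature Extraction software, version 9.5.3.1 (protocol GE1-v5_95_Feb07). The deposited intensity values are, per the file headers, a processed signal (background-subtracted and detrended, with surrogates near background), its modelled error, the mean spot intensity and the local background; the deposited files also hold other columns, namely flags. The deposited series value table holds a ratio, which matched the processed signal over the array's median within 0.0078 on the log2 scale; 0 of its columns were left unmapped.

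Of 45018 spots per array, the 1639 control spots and the outlier-flagged spots (85 with FGF18, 78 with PBS) were left out. A probe counted as measured with a share of 0.5 or more of its spots well above background, which held on both arrays for 24339 of 41165 probes. Ratios of several probes of a gene were averaged, and the error of a ratio combined both arrays' modelled errors. The error of a gene's mean combined those of its measured probes, taken as independent. The number of arrays limits the precision, and no test was made. Genes were counted at 1.5-fold, with 1.25 and 2 as alternatives. Names are those in the files; a RefSeq table (GRCm38.p6) gave chromosomes and updated names.

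The 14 other settings were median, no, quantile, loess, detected-probe and spike-in scaling, normexp (offset 50) in place of the software's background subtraction, the value table, 3 filters on dim probes, the brightest or median probe, and updated names. The calculations were tested on simulated data. The members, lists, named-gene rule and settings were chosen with earlier results of these data known. By that rule the text names all members, 15 fixed genes, and in each related list the genes past 1.5-fold or, where there were none, the highest and lowest. Tools were Python 3.11.15, numpy 2.4.6, pandas 2.3.3, statsmodels 0.14.6 and limma 3.58.1.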

Additional observations from a re-analysis of the deposited data

How the results depend on the processing

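No paired analysis was possible because each group holds 1 array, and no array could be left out. The count of 1 marker past 1.5-fold held in 13 of 16 alternatives. It was 5 with E1A spike-in scaling (Cd34, Gas1, Lhx2, Lrig1 and Tbx1, all higher with FGF18), 0 with no filter on dim probes and 0 at a fold of 2. Scaling shifts all genes together: their median was -0.07 as reported, 0.05 with median scaling, 0.11 with no scaling and 0.74 with spike-in scaling. The median of the markers (-0.14) was -0.025 with median scaling, 0.041 with no scaling, -0.071 with loess, 0.67 with spike-in scaling and -0.025 in the series value table. That of the other bulge and hair germ genes (-0.24) was -0.12, -0.054, -0.18, 0.58 and -0.12 in the same order. Relative to all genes the marker median was below 0 in 14 of 15 settings, between -0.11 and -0.035. The -0.11 came with updated names, which add Plet1 to the 8 genes found by name. Over these 8 genes the lowest was -0.079, with signals over 100 on both arrays. With no filter on dim probes the marker median was 0.039 above that of all genes. In that setting Cd34 and Tbx1 lay 0.084 and 0.080 above the median of all genes. The median of the other bulge and hair germ genes was then at -0.063 from it. Median, no, detected-probe and spike-in scaling cannot move the difference between the marker median and that of all genes. The value table, a ratio to the array's median, left it at -0.069, against -0.070 as reported. Of 126 values of single marker genes under the alternatives, 114 moved by less than the gene's modelled error and 12 by more, 9 of these with spike-in scaling, 2 with no scaling and 1 with no filter on dim probes. Lgr5, the marker past 1.5-fold as reported, kept its sign in the 14 alternatives that change the processing. Some of these could not alter the ratio of its 1 measured probe. With spike-in scaling 7 of 9 markers changed sign, and 4 of these (Cd34, Gas1, Lrig1 and Tbx1) were then past 1.5-fold. The amount of RNA that went with the spike-ins on each array is unknown here. Signal over background limits the dimmer Lgr6 probe and the second Lgr5 probe.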
